A study of Mus musculus with 2 samples.

Results

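Developmental transcription factors of the Fox, Sox, Pax and Tbx families were examined in the open chromatin of mouse common myeloid progenitors, bone marrow cells that give rise to red cells, megakaryocytes, granulocytes and monocytes. The 76 members were the protein-coding genes of GENCODE M21 whose symbols carry a family name and number (36 Fox, 19 Sox, 8 Pax and 13 Tbx genes of 21853 genes in all). The Foxo and Foxp genes and Pax5, several of which have known roles in blood cells, were left out by that rule. Accessible regions came from the conservative peak list of both libraries after overlapping peaks were merged. A gene was called open when at least 1 region reached to within 1 kb of a start of one of its protein-coding transcripts, and such a region was its promoter region. A distal region had its summit over 1 kb from every protein-coding start and was given to the nearest start within 100 kb. By these rules the members held 45 promoter regions and 187 distal regions, together 232 of 67395 regions.

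ATAC-seq, in which a transposase inserts adapters into accessible DNA, was run on 50000 cells per library from male adult C57BL/6J mice of 5 to 6 weeks, with no treatment or genetic change named. The 2 libraries, biological replicates 1 and 2 by their labels, make up 1 group. Their donor label is the same, so the spread between them may be technical. The files hold peaks and no read counts, so depth is unknown, and there is no second condition against which a change could be tested. Intervals below are exact 95% binomial intervals that cover counting error only, and genes are not independent replicates. The label of the cells was set against marker genes, beside the 60.8% of all protein-coding genes that were open by the same rule: 7 of 8 progenitor genes were open (Kit, Cd34, Flt3, Runx1, Spi1, Myb and Mpo, but not Gata2). In each replicate's own list 6 of 8 were open, without Mpo, beside 56.3% of all genes in replicate 1 and 52.0% in replicate 2. Markers of other cells were open at 3 of 6 endothelial genes and 4 of 6 stromal genes (66.7%), shares near that of all genes, and at 3 of 7 T and NK cell genes (42.9%) and 1 of 4 B cell genes.

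Fox proteins bind DNA through a winged-helix forkhead domain, Sox proteins through an HMG box that bends DNA, Pax proteins through a paired domain, and Tbx proteins through a T-box. Many of these genes specify organs of the embryo, such as Foxa2 in endoderm, Sox9 in cartilage, Pax6 in the eye and Tbx5 in heart and forelimb. A few members act in blood or in its neighbourhood, among them Sox6 in erythroid maturation, Sox4 in lymphoid progenitors and Tbx21 in T and NK cells.

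Of the 76 members, 36 were open, 47.4% (35.8 to 59.2), beside 60.8% of all protein-coding genes. The share was 19 of 36 among Fox genes, 9 of 19 among Sox genes, 3 of 8 among Pax genes and 5 of 13 among Tbx genes. Each library's own thresholded list held fewer regions and gave 28 open members in replicate 1, 36.8% beside 56.3% of all genes, and 25 in replicate 2, 32.9% beside 52.0%. The members' share thus lay below that of all genes in these 3 lists. In the looser lists of the series it did not: 53 of 76 members (69.7%) were open in the pseudoreplicated list, beside 68.5% of all genes, and 54 (71.1%) in the replicated list, beside 68.3%. No test of this difference was made, since there is 1 group and the members were chosen as a list. The same calculation gave 12 of 14 for family relatives outside the rule and 13 of 17 for cofactors of these families.

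**Figure D1:**
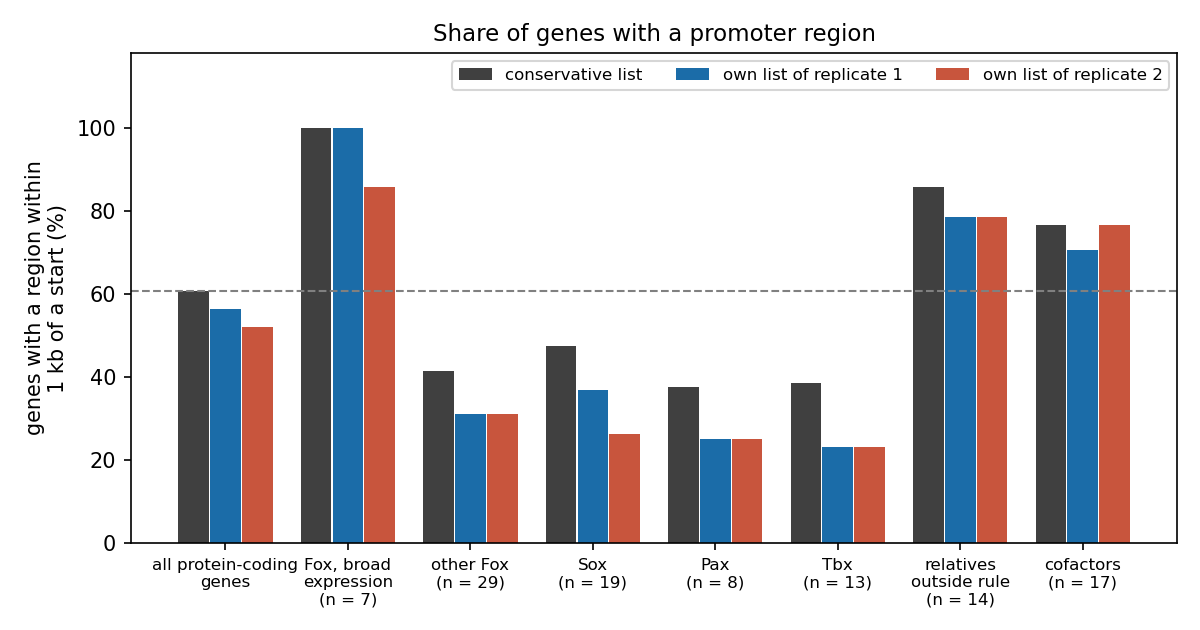
Share of genes (%) with a region within 1 kb of a start, by gene group, in the conservative list and in each replicate's own list; the dashed line is the 60.8% of all protein-coding genes in the conservative list. The Fox genes listed as broadly expressed lie above the line in the 3 lists, and the other Fox, Sox, Pax and Tbx genes lie below it.

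The Fox genes were listed in 2 kinds, a split chosen with earlier results of these data known. Expression was not measured here. All 7 Fox genes listed as broadly expressed were open, beside 60.8% of all genes: Foxj2, Foxj3, Foxk1, Foxk2, Foxm1, Foxn2 and Foxn3. Foxk1 and Foxk2 are repressors linked to autophagy and glycolysis, and Foxm1 activates genes of mitosis. In replicate 1's own list 7 of these 7 were open, beside 56.3% of all genes. In that of replicate 2 it was 6 of 7, with Foxk1 the exception, beside 52.0%. Of the 29 other Fox genes 12 were open (41.4%, 23.5 to 61.1, beside 60.8% of all genes): Foxa1, Foxa2, Foxa3, Foxc1, Foxd1, Foxd2, Foxd4, Foxe1, Foxf2, Foxi2, Foxj1 and Foxs1. The Foxa genes encode pioneer factors of endoderm, Foxc1 acts in mesoderm and in the stromal niche of the marrow, and Foxj1 drives the genes of motile cilia. The 17 without a region included Foxn1 of the thymic epithelium, Foxl2 of the ovary and Foxh1, a partner of Smad proteins. Without the broad Fox genes, 29 of 69 members were open (42.0%, 30.2 to 54.5, beside the same 60.8%).

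The Sox genes are given by subgroup, whose 1 to 5 genes are too few to compare. Sox4 and Sox12 of the SoxC genes were open and Sox11 was not. Of the SoxD genes Sox5 and Sox6, which act together in cartilage, were open, and Sox13 was not in the conservative list but was in replicate 1's own list. Sox17 and Sox18 of the SoxF genes, which act in endothelium and endoderm, were open and Sox7 was not. Of the 5 SoxB genes, which act in pluripotent and neural cells, Sox1 was open, and Sox2, Sox3, Sox14 and Sox21 were not. Of the SoxE genes, which act in neural crest, cartilage and testis, Sox8 was open, and Sox9 and Sox10 were not. Sox30, a gene of male germ cells, was open and Sox15 was not.

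Pax1 and Pax9, which act in the sclerotome and the thymic epithelium, were both open, as was Pax6. Pax2 and Pax8 of the kidney and thyroid, Pax3 and Pax7 of muscle and neural crest, and Pax4 of the endocrine pancreas had no promoter region. Among the Tbx genes, Tbx3, Tbx6, Tbx18, Tbx19 and Tbx20 were open. Tbx6 acts in paraxial mesoderm, Tbx18 and Tbx20 in the developing heart, and Tbx19 in the pituitary cells that make pro-opiomelanocortin. Tbx5 and Tbx4, of the forelimb and hindlimb, and Tbx21, the T-bet factor of T and NK cells, had none. T and NK cell markers were open at 3 of 7 genes, as given above. Cd3d and Gzmb were open, also in both replicates' own lists, as was Prf1, in that of replicate 1 alone. Cd3e, Il2rb, Ncr1 and Klrb1c were without a region.

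A start without a thresholded region could still hold a weak peak. Of the 40 members that were not open, 11 had a peak in the ranked lists of both replicates, which also hold peaks that miss the threshold (27.5%, 14.6 to 43.9, beside 7.52% of the 8560 genes without a region, members included). These were Foxe3, Foxi3, Foxl2, Sox2, Sox7, Sox9, Sox13, Sox15, Sox21, Tbx1 and Tbx15. A ranked peak in 1 replicate was found for 4 members, among them Foxb2, Foxf1 and Pax3, and 25 members had one in neither. Counted over all members, 47 of 76 had a peak in the ranked lists of both replicates, beside 63.3% of all genes. In the pseudoreplicated list 17 of the 40 were open, and over all members 53 of 76 (69.7%) were, beside 68.5% of all genes. In the conservative, pseudoreplicated and replicated lists alike, 22 members had no region: Foxb1, Foxd3, Foxh1, Foxi1, Foxl1, Foxn1, Foxn4, Foxr1, Foxr2, Pax2, Pax4, Pax7, Pax8, Sox3, Sox10, Sox11, Sox14, Tbx2, Tbx4, Tbx5, Tbx10 and Tbx22. How many of all genes had a ranked peak in 1 replicate or neither, or no region in these lists, was not counted. Absence from a list says that no peak was called there, and at unknown depth it does not show that a start was inaccessible.

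The promoter regions that members did have were weak in the list. Each peak carries the authors' signal value, whose scale is not stated and which is used here only to rank regions within a list. The median of the strongest promoter region was 7.49 over the 36 open members and 10.45 over all 13293 open genes. Ranked among all open genes, the members' median was at percentile 20.02, with a range from 1.249 at Foxa2 to 69.5 at Foxj3. Of the 36, 29 lay under percentile 50, 22 under percentile 25 and 0 over percentile 75. Among regions above the list's median signal alone the members' median percentile was 32.07. Low percentiles were not particular to members. Ranked among all open genes, the open progenitor markers stood at 2.55 (Runx1), 3.26 (Mpo), 14.7 (Myb), 23.9 (Cd34), 26.8 (Spi1), 34.3 (Kit) and 55.5 (Flt3). The member promoter regions were also narrower, with a median of 570 bp beside 757 bp. Of the open members 21 of 36 (58.3%, 40.8 to 74.5) had a region that covered a start, beside 91.1% of all open genes, and the summit of the strongest region lay a median of 173 bp from the nearest start beside 74 bp. For Foxa1, Foxd4, Foxe1, Sox6, Sox18 and Tbx6 the nearest edge of every region was over 500 bp from a start, and the region of Sox18 was 952 bp away.

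**Figure D2:**
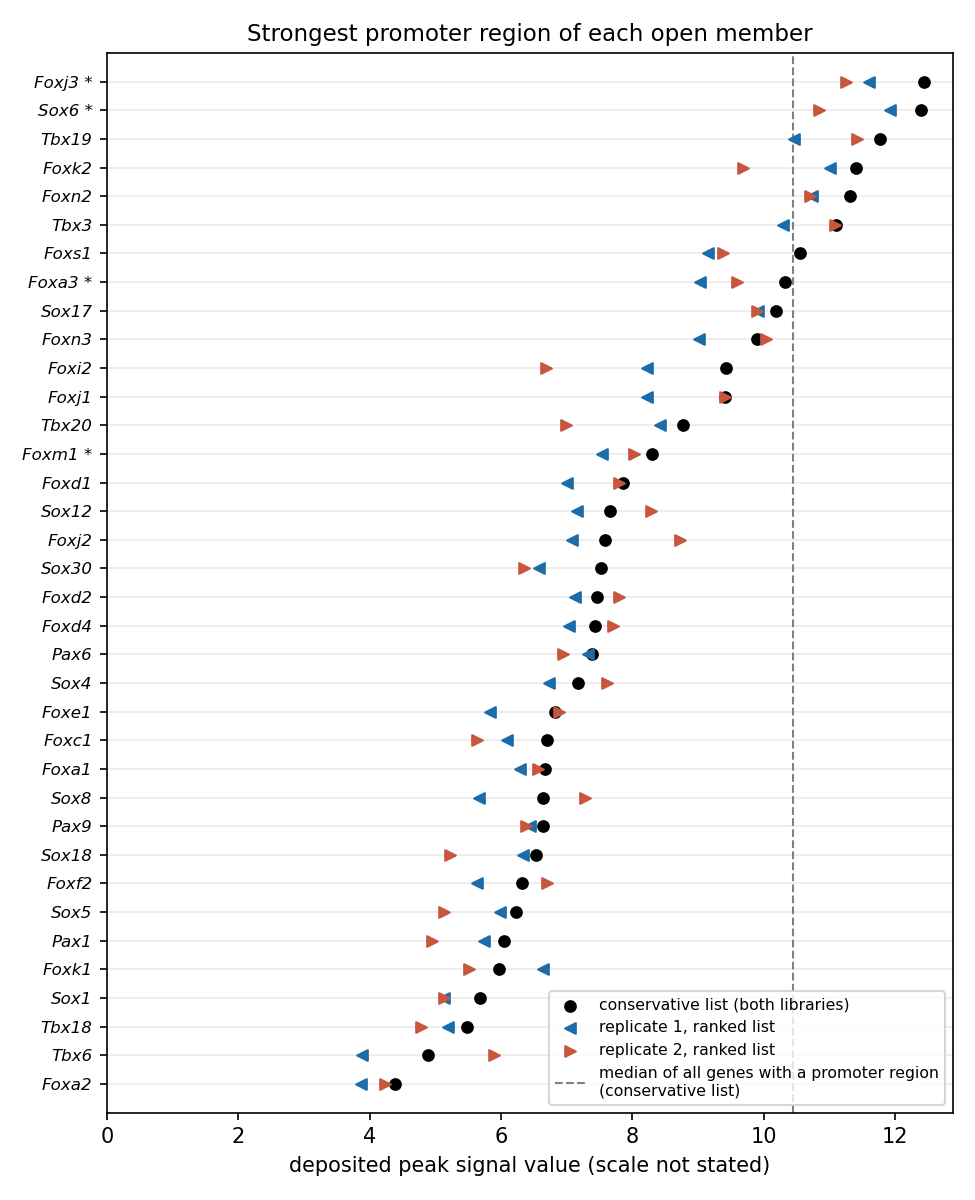
Deposited signal value of the strongest promoter region of each of the 36 open members in the conservative list (circles) and of the matching peak in each replicate's ranked list (triangles), beside the median of all open genes (dashed line, 10.45). The lists were made separately and their values are not compared as levels; 29 of 36 circles lie left of the line, and an asterisk marks the 4 members that share a promoter region with another gene.

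Foxj3 had the strongest promoter region of a member, with a signal of 12.45 in the conservative list, 11.6 in replicate 1 and 11.3 in replicate 2, and the region also lay at the start of Frg2f1. The region of Sox6 at 12.4 lay at the start of 1110004F10Rik, with its summit in an intron of that gene. It covered no Sox6 start. Its nearest edge was 533 bp from one, and its summit lay over 1 kb from every Sox6 start. The signal of 12.4 thus cannot be taken as that of a Sox6 start. The other region near a Sox6 start had a signal of 4.27 and was in neither replicate's own list. Foxa3 at 10.3 shared its region with Sympk, and Foxm1 at 8.31 with Rhno1. Thus 4 of 36 open members shared a region with another protein-coding gene, beside 19.8% of all open genes. A start of a long noncoding RNA lay within 1 kb of the promoter regions of 8 members, among them Foxd2os at Foxd2, Tbx3os1 at Tbx3 and Sox6os at Sox6. The share of all open genes with such a start was not counted.

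Among members that shared no start, Tbx19 was the strongest. Its 2 regions had signals of 11.8 (10.5 in replicate 1 and 11.4 in replicate 2) and 8.54 (8.11 and 5.95). The first passed the threshold of both replicates' own lists, the second that of replicate 1. Foxk2 followed with 11.4 (11.02 and 9.68), Foxn2 with 11.3 (10.7 and 10.7), Tbx3 with 11.1 (10.3 and 11.1), Foxs1 with 10.6 (9.15 and 9.39), Sox17 with 10.2 (9.92 and 9.91) and Foxn3 with 9.90 (9.02 and 10.03). Each of these regions was in both own lists, so the strongest members did not rest on 1 library. At the other end stood Foxa2 with 4.39 (3.87 and 4.23), Tbx6 with 4.89 (3.88 and 5.89), Tbx18 with 5.47 (5.20 and 4.79), Sox1 with 5.67 (5.13 and 5.14) and Foxk1 with 5.96 (6.63 and 5.51). None of those 5 regions was in both own lists. The endothelial markers, of which 3 of 6 were open (Cdh5, Pecam1 and Egfl7), are given beside Sox17 and Sox18, and the stromal markers, of which 4 of 6 were open (Pdgfra, Pdgfrb, Col1a1 and Col1a2), beside Foxc1, Foxs1 and Tbx18. The part of such cells in these regions was not tested.

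Sequences at the summits of the strongest promoter regions of tissue-restricted members are printed to show what was open there. Windows that overlap an exon (as at Tbx3, Sox17 and Foxi2) were passed over, as were the regions that Sox6 and Foxa3 share with other genes. These were stronger than the last of the printed regions, and that of Sox6 was stronger than all of them. Each printed window is centred on the summit in mm10, and capitals mark whole matches to the searched motifs.
Tbx19, chr1:165154279-165154379, + strand: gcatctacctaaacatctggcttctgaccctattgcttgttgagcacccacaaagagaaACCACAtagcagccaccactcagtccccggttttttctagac
Foxs1, chr2:152933763-152933863, + strand: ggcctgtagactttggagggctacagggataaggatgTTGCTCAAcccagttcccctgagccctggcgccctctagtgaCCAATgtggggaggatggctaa
Foxj1, chr11:116335403-116335503, + strand: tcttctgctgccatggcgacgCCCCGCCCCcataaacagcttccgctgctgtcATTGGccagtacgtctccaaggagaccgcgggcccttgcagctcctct
The Tbx19 window lies in an intron of its gene, holds the RUNX sequence TGTGGT on the other strand, and has 48.5% G and C. The Foxs1 window holds a C/EBP match (TTGCNNAA) and an NFY match (CCAAT), and the Foxj1 window an SP match (GGGGCGGGG) and an NFY match. Both strands were searched within 50 bp of each summit. NFY matched 10 of 45 member promoter summits (22.2%, beside 21.7% of all promoter summits), SP 4 of 45 (8.89%, beside 8.04%) and CTCF 6 of 45 (13.3%, beside 8.13%). RUNX matched 1 of 45 (2.22%, beside 7.17%) and C/EBP 2 of 45 (4.44%, beside 3.23%). PU.1 (GAGGAAGT) and ETS (ACCGGAAG, whose last letters also lie in the PU.1 motif) matched 0 of 45, which allows a share of up to 7.87%, beside 2.74% and 2.26% of all promoter summits. The GATA sequence AGATAAG also matched 0 of 45, beside 1.03%.

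The regions met both replicates less often than the list as a whole. Of the 36 open members 21 were open in both own lists (58.3%, beside 84.0% of all open genes), 6 in that of replicate 1 alone (Foxi2, Foxk1, Sox5, Sox18, Sox30 and Tbx20), 4 in that of replicate 2 alone (Foxd1, Sox6, Sox8 and Tbx6) and 5 in neither (Foxa2, Foxe1, Pax1, Sox1 and Tbx18). That count follows the start window within each list. By overlap of regions, the strong region shared by Sox6 and 1110004F10Rik met both own lists. Counted by region, 24 of 45 promoter regions (53.3%, 37.9 to 68.3) and 64 of 187 distal regions (34.2%, 27.5 to 41.5) met a region in both own lists, beside 71.8% and 44.4% of all such regions. Over both kinds the share was 37.9% (31.7 to 44.5), beside 50.6%. With regions split into 3 equal classes by signal, 92.0% of the 50 member regions in the strongest class met both own lists, beside 89.1% of all regions of that class. In the middle class the shares were 36.6% of 82 and 47.2%, and in the weakest 12 of 100 member regions did, beside 16.0%. The interval of the member share held the share of all regions in the strongest and the weakest class, and in the middle class (26.2 to 47.9) as well. In the ranked lists without threshold 94.0% of member regions and 94.0% of all regions met both replicates.

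Many members without a region had CpG-rich starts. This comparison was chosen after the open members were known. A start was called CpG-rich when the 500 bp on each side of the most upstream start had at least 55% G and C and a ratio of observed to expected CpG of at least 0.65. By that rule 40 of 76 members were CpG-rich (52.6%, 40.8 to 64.2), beside 35.3% of all genes. Of the 40, 18 had a region at that start (45.0%, 29.3 to 61.5), beside 87.9% of all 7718 CpG-rich starts. Of the 36 CpG-poor member starts 13 had one (36.1%, 20.8 to 53.8), beside 40.5% of all CpG-poor starts. By this split the gap between members and all genes was wider at the CpG-rich starts. It was not confined to them, and the CpG-poor starts of members and of all genes were not matched for ratio. At ratios of 0.6 to 0.7, 6 of 15 members had a region, beside 82.2% of all genes. At 0.5 to 0.6 it was 5 of 8, beside 75.3%, while at 0.3 to 0.4 it was 3 of 4, beside 39.2%. With stricter limits for a CpG-rich start 15 of 30 members had a region, beside 87.8%. Without the broad Fox genes 14 of 34 CpG-rich member starts had one (41.2%, 24.6 to 59.3).

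The 22 CpG-rich starts without a region belonged to Foxb1, Foxb2, Foxc2, Foxd3, Foxe3, Foxf1, Foxi3, Foxj2, Foxl1, Foxl2, Foxn3, Pax2, Pax3, Sox2, Sox3, Sox7, Sox9, Sox11, Sox13, Sox21, Tbx2 and Tbx21. Foxj2 and Foxn3 of these were open at another of their starts. The 45 member starts without a region had a median CpG ratio of 0.663 and 58.7% G and C, while the 9338 starts without a region in all genes had 0.210 and 47.5%. At a ratio of at least 0.7, 16 of 36 members (44.4%) and 89.2% of 7624 genes had a region.

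**Figure D3:**
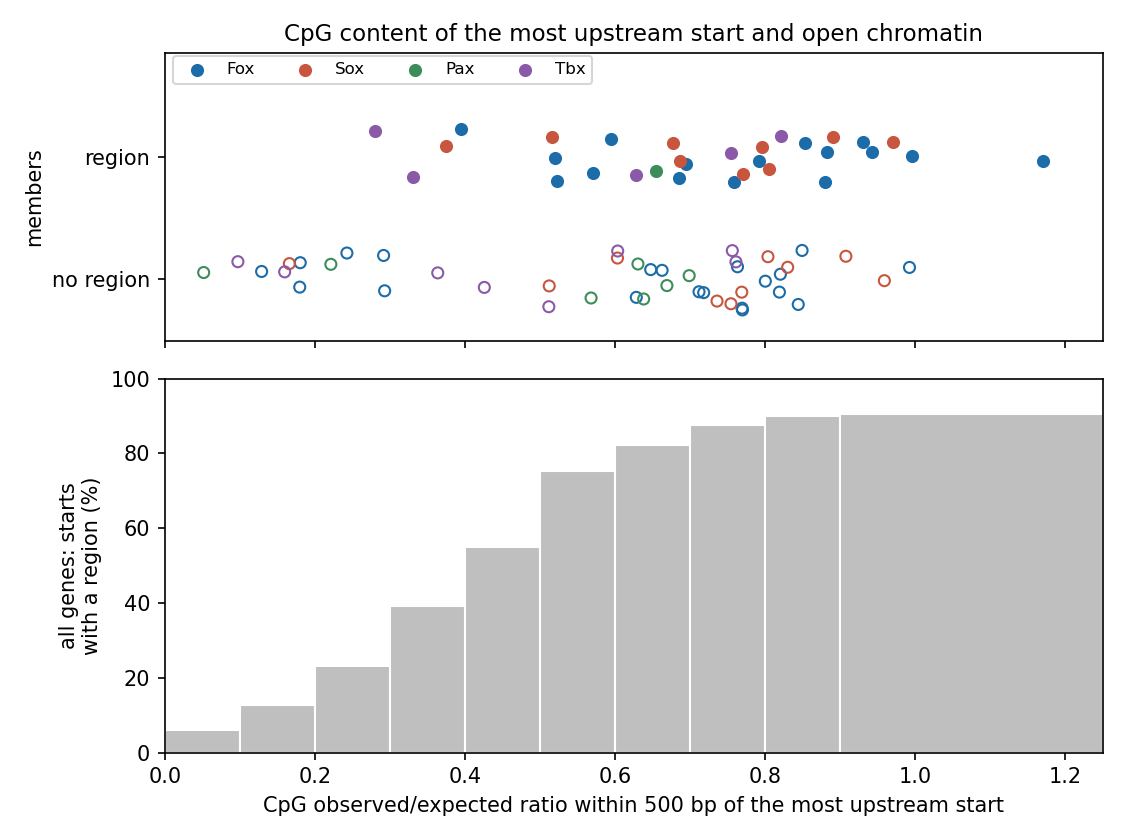
Upper panel, the ratio of observed to expected CpG at the most upstream start of each member, in rows by whether the start had a region, with vertical scatter only to separate points. Lower panel, the share (%) of the most upstream starts of all protein-coding genes with a region per class of ratio, the last class being 0.9 and above. The share over all genes rises to 90.7% in the last class, where 5 of 8 members had a region.

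Upstream sequences of CpG-rich members, taken from mm10 in the direction of the gene and ending just before the start, are set side by side to show starts of high CpG ratio with and without a region. They are those of the 2 highest CpG ratios among members with a region at the start (Foxk2 and Foxk1) and among those without (Foxc2 and Sox2), and capitals mark CpG.
Foxk2, chr11:121259889-121259989, + strand: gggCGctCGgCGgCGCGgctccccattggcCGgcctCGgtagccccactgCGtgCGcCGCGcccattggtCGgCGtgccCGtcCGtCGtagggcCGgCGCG
Foxk1, chr5:142401396-142401496, + strand: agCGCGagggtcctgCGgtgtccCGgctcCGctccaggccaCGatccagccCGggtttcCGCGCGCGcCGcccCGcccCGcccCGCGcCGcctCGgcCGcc
Foxc2, chr8:121116070-121116170, + strand: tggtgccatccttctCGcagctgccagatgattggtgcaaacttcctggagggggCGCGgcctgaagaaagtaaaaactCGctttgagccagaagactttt
Sox2, chr3:34650304-34650404, + strand: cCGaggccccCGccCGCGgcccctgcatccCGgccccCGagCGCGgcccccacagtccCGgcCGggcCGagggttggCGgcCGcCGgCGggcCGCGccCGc
The windows hold 19 CpG in Foxk2, 19 in Foxk1, 4 in Foxc2 and 18 in Sox2, and G and C make up 80.2%, 83.2%, 52.5% and 89.1%. The Sox2 window, at the gene of a pluripotency factor, thus matched the Foxk windows in CpG, while that of Foxc2, a gene of mesoderm and lymphatic vessels, held fewer. Foxk2 had a region of signal 11.4 at its start. That of Foxk1 was weaker, at 5.96 (6.63 in replicate 1 and 5.51 in replicate 2), and was not in replicate 2's own list. Sox2 had peaks in the ranked lists of both replicates (5.24 and 4.04) but no conservative region, and Foxc2 had neither.

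Distal regions were common near members. Of the 76, 57 had at least 1 (interval 63.7% to 84.2%), beside 60.3% of all genes. The mean was 2.46 per member and 2.06 per gene, and the median was 1 in both. Members have large territories, the stretch over which their start is the nearest one within 100 kb, with a median of 105 kb beside 43.6 kb. Per 100 kb of territory the members had 2.22 distal regions and all genes 2.92, so that the rate of all genes would have given 246.5 in place of 187. The rate was 2.74 for open members and 1.64 for the others, beside 3.67 for all open genes and 1.72 for all genes without a promoter region. The difference in rate was thus larger at open members, which held 122 of the 187 regions, than at the others.

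Foxn3 had the most, with 17, and Sox6 had 11, Foxk1 9, Foxa2 and Sox4 8, Foxl1, Foxn2, Sox5 and Sox13 7 and Pax1 6, a count that Tbx3 shared. The first 10 held 87 of 187 (46.5%). A count of at least 17 was reached by 107 genes in all. At the rate of all genes their territories would have given 10.6 for Foxn3, 13.5 for Sox6, 11.6 for Sox5, 5.79 for Sox4 and for Foxa2, and 3.78 for Foxk1. Foxk1 and Foxn3 were thus above their line and Sox5 and Sox6, with long introns, below it. Foxl1 and Sox13 had 7 each and no promoter region, and all 7 of Foxl1 lay in introns of another protein-coding gene, Gm20388. In contrast Sox9, Sox3 and Sox11, with territories of 198 kb, had 0, where that rate would have given 5.79. Sox9 is known for enhancers much farther away than 100 kb, which the rule does not reach. By family branch, the 36 regions of the 7 broad Fox genes came to 4.56 per 100 kb, the 4 of the 5 SoxB genes to 0.512 and the 7 of the 6 genes of the Tbx1 branch to 0.922. These were not the extremes. The SoxE genes and Sox15 had 0, and Pax3 and Pax7 had 0.646. Tbx21 alone had 8.43, and Tbx6 alone 32.65 from 1 region. Most branches hold too few genes to compare.

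**Figure D4:**
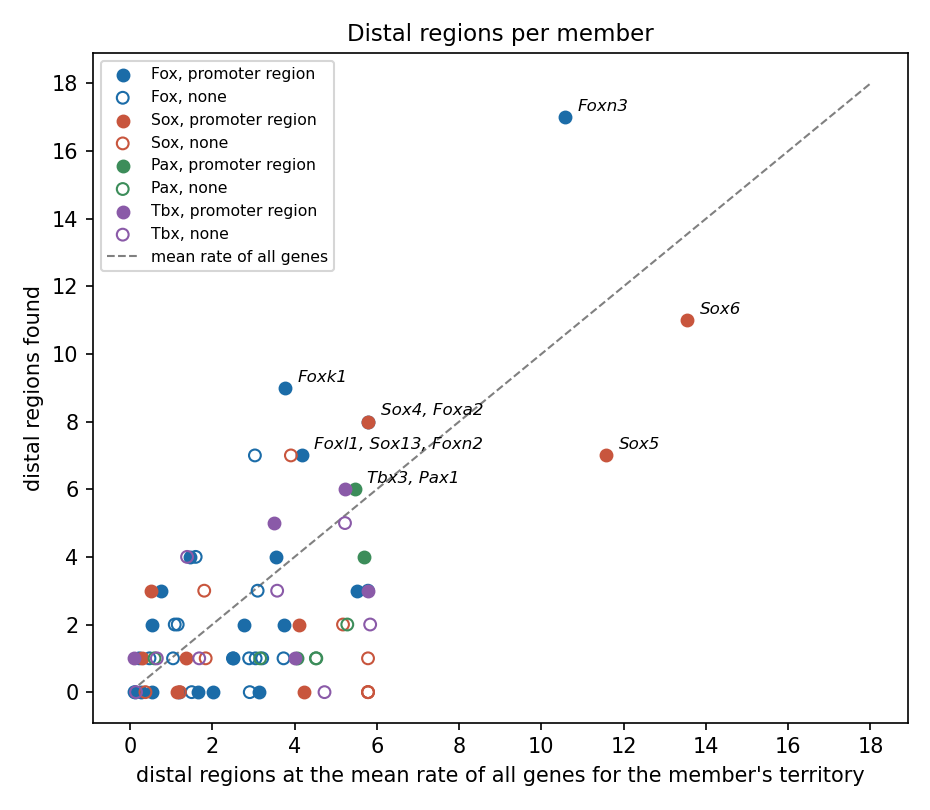
Distal regions found for each member against the number that the mean rate of all genes (2.92 per 100 kb) gives for its territory; filled points are members with a promoter region, open points members without, and the dashed line marks equal numbers. Foxn3 and Foxk1 lie above the line, and Sox5 and Sox6 below it.

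The strongest distal region of a member lay 8.21 kb upstream of Sox12, with a signal of 20.7 in the conservative list, 17.4 in replicate 1 and 20.5 in replicate 2. It stood at percentile 99.8 of all distal regions, above the 7.67 of the strongest promoter region of Sox12 in the same list. Next was a region 21.6 kb upstream of Foxe3, a lens gene that was not open, with 17.9 (16.1 and 16.1), and then one 14.2 kb downstream of the start of Sox7, likewise not open, with 15.4 (13.8 and 12.9). Pax1 had one at 40.7 kb upstream with 13.9 (12.2 and 11.9), Foxn2 at 98.9 kb upstream with 13.8 (11.7 and 12.97) and Tbx19 at 33.2 kb downstream with 13.6 (12.4 and 12.02). Regions near Foxi3, Foxn3, Tbx4 and Foxl1 completed the first 10, with 13.2 to 13.4. All 10 were in both replicates' own lists. Nearness does not show that a region acts on the member, and the Foxl1 region lay in an intron of Gm20388.

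Windows at the 6 strongest of these summits are printed, with motif matches in capitals.
Sox12, chr2:152406222-152406322, + strand: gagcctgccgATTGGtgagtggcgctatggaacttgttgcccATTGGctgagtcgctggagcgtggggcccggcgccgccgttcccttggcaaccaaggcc
Foxe3, chr4:114947530-114947630, + strand: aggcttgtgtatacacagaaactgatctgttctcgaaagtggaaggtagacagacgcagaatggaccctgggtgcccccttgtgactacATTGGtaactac
Sox7, chr14:63957853-63957953, + strand: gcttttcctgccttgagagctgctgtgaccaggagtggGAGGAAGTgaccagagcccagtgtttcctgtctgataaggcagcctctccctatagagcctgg
Pax1, chr2:147321138-147321238, + strand: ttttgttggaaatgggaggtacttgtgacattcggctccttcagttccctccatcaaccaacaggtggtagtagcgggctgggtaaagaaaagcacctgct
Foxn2, chr17:88341725-88341825, + strand: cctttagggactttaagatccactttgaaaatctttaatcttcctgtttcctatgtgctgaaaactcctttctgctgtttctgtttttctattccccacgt
Tbx19, chr1:165120502-165120602, + strand: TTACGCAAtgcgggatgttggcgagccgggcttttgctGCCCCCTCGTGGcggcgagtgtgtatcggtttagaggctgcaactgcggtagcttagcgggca
The Sox12 window holds 2 NFY matches and 66.3% G and C, although no protein-coding or other annotated start lies within 1 kb. The Foxe3 window holds 1 NFY match. The Sox7 window holds the PU.1 sequence, that of a factor needed for myeloid cells, and the Tbx19 window a C/EBP match at its edge and a CTCF match. The Pax1 and Foxn2 windows hold no match to the motifs searched.

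**Figure D5:**
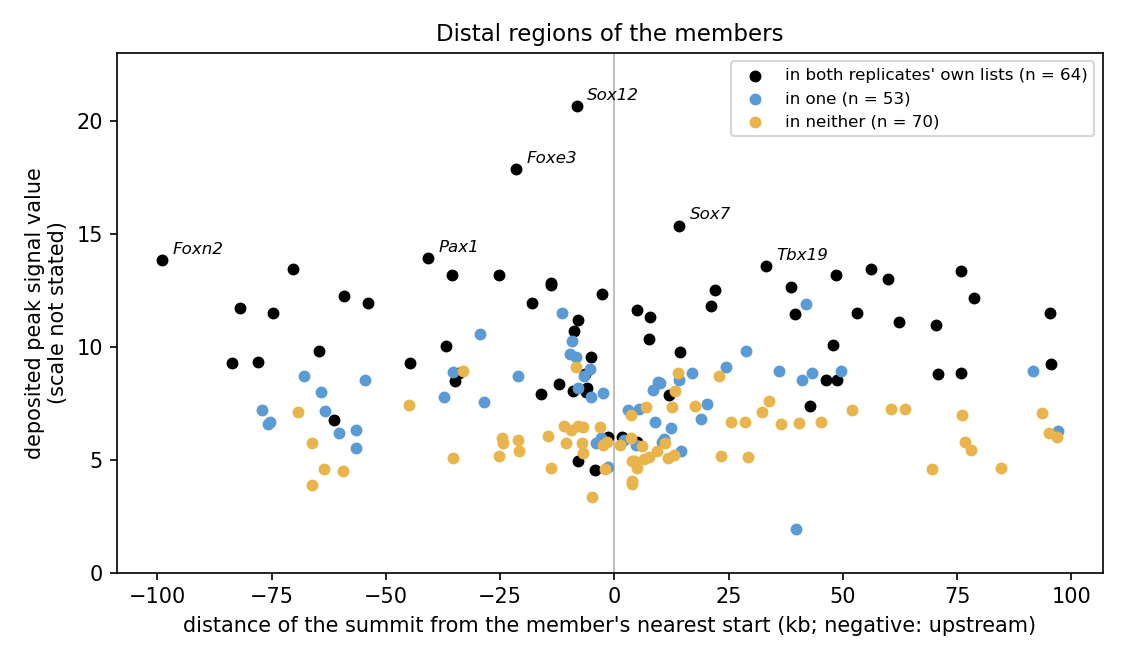
Deposited signal of each of the 187 distal regions of members against the distance of its summit from the member's nearest start (kb, negative upstream in the direction of the gene), coloured by whether the region met both, one or neither of the replicates' own lists. The 64 regions in both range from 4.52 to 20.7 with a median of 11.02, the others from 1.93 to 11.9 with a median of 6.56, and the 6 strongest carry their gene's name.

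As a whole the distal regions were of ordinary width and slightly lower signal. Their median signal was 7.48 beside 8.05 over all distal regions, and their median width 445 bp beside 453 bp. They lay a median of 21.6 kb from the start beside 17.7 kb, with 90 upstream and 97 downstream. Introns held 71, exons 8 and intergenic sequence 108; 60 lay inside the member's own gene and 19 inside another protein-coding gene. A start of another annotated transcript lay within 1 kb of 21 of the 187 (11.2%), beside 10.2% of all distal regions. In 16 of the 21 it was that of a gene not annotated as protein-coding, and in 5 only that of a transcript of a protein-coding gene that is not itself annotated as coding.

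Sequences of myeloid factors were counted at the distal summits. PU.1, RUNX or ETS letters lay within 50 bp of 34 of 187 summits (18.2%, 12.9 to 24.5), beside 25.8% of all distal summits. RUNX alone matched 25 of 187 (13.4%, 8.84 to 19.1), beside 19.96%, whereas PU.1 matched 12 (6.42%, beside 6.71%) and ETS 0, which allows a share of up to 1.95%, beside 0.427%. GATA matched 8 (4.28%, beside 3.67%), C/EBP 11 (5.88%, beside 5.58%) and CTCF 42 (22.5%, 16.7 to 29.1, beside 16.98%). Letters of the families themselves were also searched, except for Pax. Forkhead (TGTTTAC) matched 1 summit (0.535%, 0.0135 to 2.94), beside 1.00% of all distal summits. Sox (AACAANG) matched 6 (3.21%, 1.19 to 6.85), beside 4.52%. T-box (AGGTGTGA) matched 0, which allows a share of up to 1.95%, beside 0.256%. Each of these intervals held the share of all distal summits. Sox6 held 3 of the 8 GATA matches and 2 of the 12 PU.1 matches, Sox7 held 2 of the PU.1 matches and 1 GATA match, Tbx19 3 of the 11 C/EBP matches and Foxn4 3 of the 25 RUNX matches. A match to letters does not show that a factor was bound.

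Relatives and cofactors gave the setting of the members. Among relatives outside the rule, the 8 Foxo and Foxp genes, Pax5, T, Tbr1 and Mga were open and Eomes and Sry were not. Foxp3 at 14.99 and Pax5 at 14.3 had stronger promoter regions than any member, and Foxp1 had 29 distal regions, more than any member. Of 17 cofactors 13 were open, among them the corepressor genes Tle1, Tle3, Tle4, Ctbp1 and Ctbp2, and Tle2, Eya4, Six4 and Kdm6b were not. The mean number of distal regions was 5.29 for relatives and 5.18 for cofactors, beside 2.46 for members. Without Foxp1 the mean of the relatives was 3.46. Per 100 kb of territory the relatives had 3.18, the cofactors 3.33 and the members 2.22, beside 2.92 for all genes.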

How the data were processed

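ATAC-seq peak lists of 2 libraries of 1 group were used, on the mm10 assembly per the labels. Of 13 deposited lists 10 were read. No peak caller, setting or shift of reads for the transposase is named in them (not given in the sources used here). The authors' deposited lists give each peak a signal value of unstated scale, used to rank regions within a list, and a −log10 p, which was carried along and not tested. Each replicate's values come from its own ranked list, and its thresholded list served for recurrence.

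Overlapping peaks on chromosomes 1 to 19, X and Y were merged, keeping the strongest peak's summit and signal. Starts were the 54361 of protein-coding transcripts in GENCODE M21. A region within 1 kb of a member's start counted as its promoter region, also where its summit lay farther (2 regions that would be distal by summit). Regions of lists were matched by at least 1 bp. Sequences came from the GRCm38.p6 genome of RefSeq, and motifs were whole matches on either strand. No test between groups was possible. Functions were tested on simulated data. Tools were pysam 0.24.0, pandas 2.3.3, NumPy 2.4.6, SciPy 1.17.1 and Python 3.11.15.

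The members, gene lists, subgroups, markers and motifs were chosen with earlier results of these data known. Any member could be named, apart from a result not reported here, and beyond members the genes of the lists and those that share a promoter region. Of the listed genes Trbc2 is not in the protein-coding set. The upstream windows of CpG-rich starts were chosen after seeing the data. Alternatives were other peak lists, either replicate alone, the upper part of regions by signal, other windows, overlaps and distance limits.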

Additional observations from a re-analysis of the deposited data

How the results depend on the processing

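The number of open members changed by over 1.5 times in 1 alternative, the regions above the list's median signal, where 13 members (Foxa3, Foxi2, Foxj1, Foxj3, Foxk2, Foxn2, Foxn3, Foxs1, Sox6, Sox17, Tbx3, Tbx19 and Tbx20) were open beside 43.7% of all genes. It was 25 to 28 with 1 replicate's own list (beside 52.0% to 56.3%), 30 with a window of 500 bp (39.5%, beside 58.9%) and 38 with one of 2500 bp (beside 64.8%), where Foxh1 and Foxl1 were added. It was 54 in the replicated list (71.1%, beside 68.3%) and 53 in the pseudoreplicated list (69.7%, beside 68.5%), so that the members' share there lay above that of all genes. The cause was not tested. The distal count was 406 in the replicated list, 406 in the pseudoreplicated list, 79 in the regions above the median signal and 75 to 117 with 1 replicate's own list, lists that hold more or fewer regions. The share of member regions in both replicates was 94.0% with the pseudoreplicated lists and with the ranked lists, the latter chosen after seeing the data, beside 94.0% of all regions with each. With the replicates' lists brought to equal length by signal it was 31.0%, beside 43.9%. PU.1, RUNX or ETS letters matched 31.6% of member distal summits within 100 bp, beside 36.5%. The median signal percentile was 32.07 among regions above the median signal, over 1.5 times the 20.02 reported but inside its 95% interval by order statistics (12.9 to 39.3). The other counts stayed within 1.5 times, and the other shares and medians within their 95% intervals. No paired analysis was possible because there is 1 group. Depth is unknown, so a start without a peak may be accessible below what these lists call.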
